A study of Homo sapiens with 11 samples.

Results

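Gene expression in DMS153, an established line of small cell lung carcinoma, was read against the map of chromatin domains made from the same line. Each listed gene was placed by the midpoint of its locus. It was called a boundary gene within 40 kb of a domain start or end, an interior gene when it lay deeper inside a domain, and an outside gene when it lay in no domain and further than 40 kb from any end. Of 57815 gene identifiers in each RNA table, 4948 with small RNA symbols were left out, and all of the other 52867 were classed. There were 15057 boundary genes (28.5%), 18345 interior genes (34.7%) and 19465 outside genes (36.8%). Expression played no role in the classing. Among the 19126 genes that RefSeq lists as protein-coding, 6628 were boundary, 5923 interior and 6575 outside genes. The outside class includes all 557 genes of the Y chromosome and the mitochondrial genome, where the map has no domains. It also includes genes beyond the first or last domain of a chromosome. Of the 6575 protein-coding outside genes, 5539 lay between those domains.

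Chromatin in the nucleus folds into domains, also called topologically associating domains, within which DNA segments touch each other more often than they touch segments next door. Cohesin extrudes loops of DNA until it meets CTCF, and many domain ends carry CTCF sites. Housekeeping genes and transfer RNA genes are known to lie near domain ends in many cell types, while genes of development and of specialised tissues often lie deep inside a domain with their distant enhancers. Small cell lung carcinoma is a fast-dividing tumour with neuroendocrine features, such as the expression of hormone and granule genes.

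The series studied chromatin structure and expression in 2 carcinoma lines, DMS153 and NCI-H209 (H209 below), and in MRC5, a noncancerous line of lung fibroblasts. All lines were grown in 1 medium, and the labels name no drug treatment or engineered genetic change. For DMS153 there were 1 Hi-C library, which measures how often remote stretches of DNA touch, and 3 RNA libraries. The RNA of H209 (2 libraries) and MRC5 (3 libraries) served for comparison. Expression is in FPKM, fragments mapped to a transcript, divided by its length and by the size of the library, a level that can be compared between genes of different length. The labels do not say whether the replicates were separate cultures, so errors and p-values cover library-to-library spread alone, and that may be technical. Each library is bulk RNA, so fewer expressing cells and less RNA per cell cannot be told apart.

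The 3 DMS153 libraries were alike. Between 16107 and 16252 genes reached 1 FPKM, and log2(FPKM + 1) correlated at 0.995 to 0.997 across the 52867 genes, which are not independent replicates. Small RNA symbols took 40.2% to 44.5% and mitochondrial genes 4.42% to 6.08% of the summed FPKM. The tables give no counts, so sequencing depth is unknown. Neuroendocrine and epithelial markers were high in every DMS153 library: INSM1 was at 168 to 237 FPKM, CHGA at 219 to 348, NKX2-1 at 67.6 to 70.02 and EPCAM at 253 to 323. Of the fibroblast markers, VIM was at 0.0802 to 0.124 FPKM, COL1A1 at 0.801 to 1.29, COL6A3 at 0.897 to 1.56 and DCN at no more than 0.108. PTPRC, a leukocyte marker, stayed at or below 0.0612 FPKM.

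The DMS153 map held 5023 domains on 23 chromosomes, with a median size of 240 kb and a range from 80 to 2000 kb. Of the 5000 neighbouring pairs, 1556 abutted, 147 overlapped and 3297 were parted by a gap with a median of 140 kb. The 301 domains of 80 kb (5.99%) are too small to hold an interior gene. Between the first and last domain of each chromosome, the zone within 40 kb of an end covered 620 Mb (21.5%), the interior 1308 Mb (45.4%) and the space outside 952 Mb (33.1%). Protein-coding genes were densest in the boundary zone, with 10.6 per Mb against 4.53 in the interior and 5.82 outside. Summed expression followed with 266, 82.0 and 110.5 FPKM per Mb.

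Boundary genes were expressed at higher levels than interior and outside genes. The median protein-coding boundary gene stood at 6.56, 6.60 and 6.78 FPKM in the 3 libraries, the median interior gene at 3.82, 3.89 and 4.01, and the median outside gene at 4.56, 4.73 and 4.70. No library of one class overlapped with another class. On the log2(FPKM + 1) scale the boundary median exceeded the interior median by 0.64 ± 0.01 (SD, n = 3) and the outside median by 0.43 ± 0.02. Flipping the signs of 3 libraries gives an exact 2-sided p of 0.25, the smallest that this design allows. A level of at least 1 FPKM was reached by 70.7% ± 0.264 of boundary, 64.0% ± 0.275 of interior and 63.6% ± 0.199 of outside genes.

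Much of the gap came with genes that were near silent. Among protein-coding genes with a mean of at least 1 FPKM, the medians were 13.6 FPKM at boundaries, 11.03 in interiors and 13.9 outside. The log2 difference between boundary and interior was then 0.28 ± 0.02 (SD, n = 3). Against outside genes it was -0.025 at the median, with all 3 libraries between -0.04 and -0.02. On mean log2 values it was 0.05, with all 3 libraries at 0.050 to 0.054. Among expressed genes a boundary excess over outside genes was thus not seen at the median and was slight at the mean.

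The share of boundary genes grew from tier to tier of expression. Of 782 protein-coding genes listed at 0 in all 3 libraries, 19.8% were boundary genes. The share was 29.3% from there to 0.1 FPKM, 34.1% to 1 FPKM, 35.3% to 10 FPKM and 37.6% to 100 FPKM. Above 100 FPKM, 290 of 626 genes (46.3%) lay at boundaries and 150 (24.0%) in interiors.

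**Figure D1:**
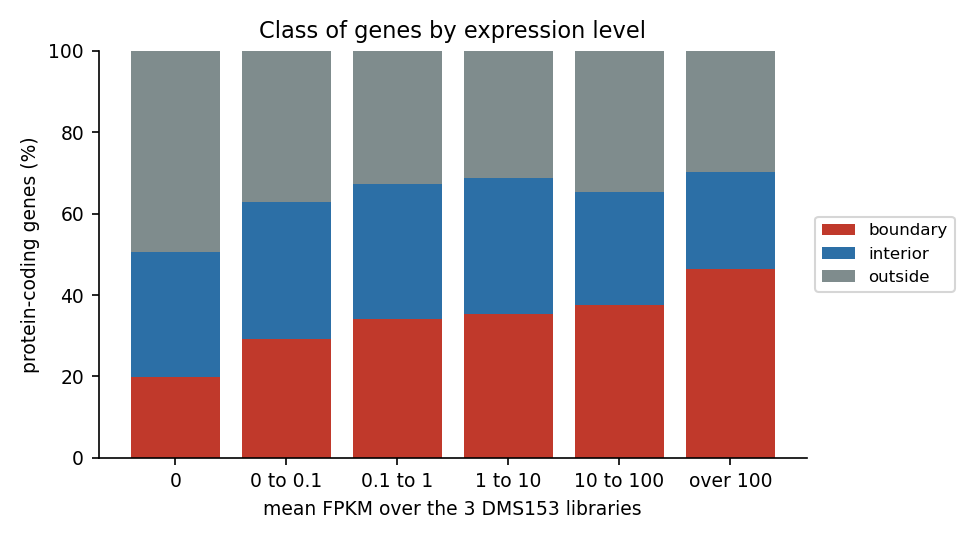
Share of protein-coding genes in the boundary, interior and outside class (stacked, percent) by mean FPKM over the 3 DMS153 libraries. The boundary share grows from 19.8% of the genes listed at 0 to 46.3% of those above 100 FPKM.

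The level was lower further from a domain end, and the drop set in sooner on the inside. Domain ends lie on a 20 kb grid, so bins of 10 kb, and the side of a gene close to an end, are finer than the map. Inside domains the median protein-coding gene was at 7.69, 8.04 and 8.04 FPKM within 10 kb of the end, at 5.94, 6.12 and 6.23 from 10 to 20 kb, and at 4.31, 4.28 and 4.52 from 20 to 40 kb. Beyond, it was 4.32 ± 0.0855 (SD, n = 3) from 40 to 80 kb, 3.69 ± 0.118 to 160 kb and 3.21 ± 0.104 to 320 kb. The 365 genes more than 320 kb from an end had a higher median again, 4.22 ± 0.187 FPKM. Outside domains the median held at 8.87 ± 0.186, 8.16 ± 0.105 and 8.42 ± 0.201 FPKM in the 3 bins up to 40 kb, and was still 6.85 ± 0.0674 to 80 kb and 6.40 ± 0.116 to 160 kb. From 160 to 320 kb it was 2.87 ± 0.0838, and beyond 320 kb 3.38 ± 0.0601. Each step between these bins had the same direction in all 3 libraries, except that inside domains replicate 2 was higher at 40 to 80 kb (4.42 FPKM) than at 20 to 40 kb, while replicates 1 (4.26) and 3 (4.27) were lower.

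**Figure D2:**
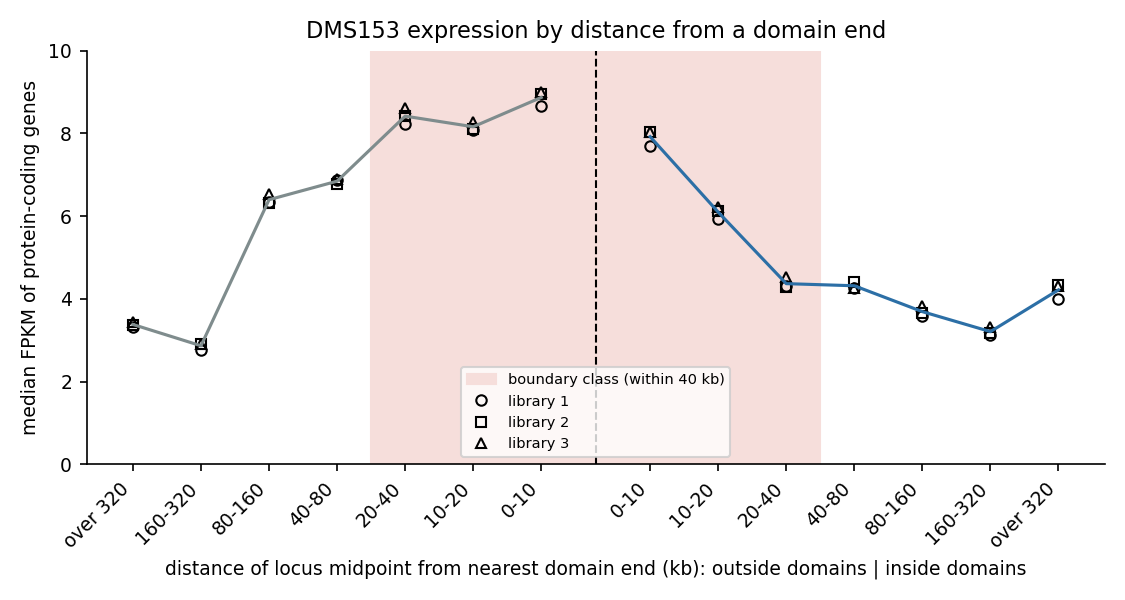
Median FPKM of protein-coding genes in each of the 3 DMS153 libraries (symbols; lines join their means) by the distance in kb of the locus midpoint from the nearest domain end, outside domains on the left and inside on the right. Medians are 7.92 to 8.87 FPKM next to an end and 2.87 to 4.22 in the bins furthest away, beyond 160 kb.

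The limit of 40 kb marks no step. The 271 protein-coding genes just within it, at 38 to 40 kb, had a median of 4.39 ± 0.168 FPKM (SD, n = 3), and the 253 genes at 40 to 42 kb had 5.20 ± 0.234. The all-gene classes, in which most members are not protein-coding, showed the same order at a lower level. Their medians were 0.222 ± 0.00527 FPKM at boundaries, 0.0193 ± 0.000749 in interiors and 0.0259 ± 0.00100 outside, and 39.0%, 25.7% and 28.8% of the genes reached 1 FPKM. Long noncoding RNA genes of RefSeq stood at 0.139, 0.0464 and 0.0838 FPKM, with 26.4%, 18.3% and 27.1% of them at 1 FPKM or more.

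Locus length differed between the classes and moved with the result. The median protein-coding locus spanned 21.2 kb at boundaries, 49.8 kb in interiors and 23.2 kb outside. Among loci up to 10 kb, boundary genes were at 2.63 FPKM and interior genes at 0.153, a log2 difference of 1.65 ± 0.04 (SD, n = 3). It was 1.15 ± 0.01 at 10 to 30 kb, 0.50 ± 0.03 at 30 to 100 kb and 0.09 ± 0.01 above 100 kb. Against outside genes it turned from 1.40 ± 0.02 in the shortest to -0.26 ± 0.01 in the longest loci. A boundary excess was thus present at each length against interior genes, large in short loci and slight in long ones.

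**Figure D3:**
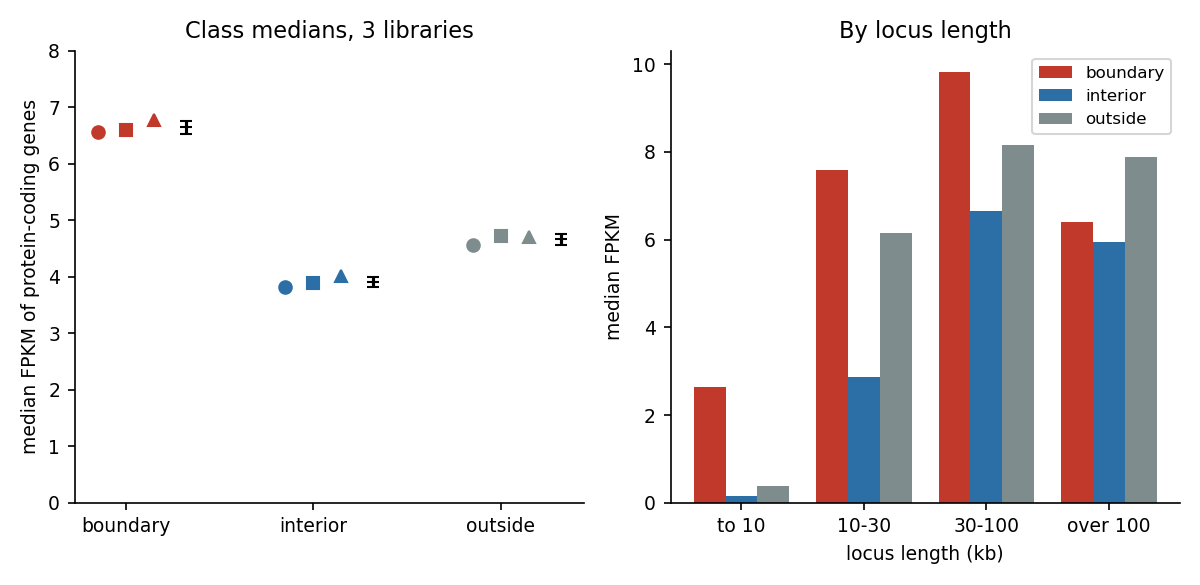
Left, median FPKM of protein-coding genes of each class in the 3 DMS153 libraries (symbols) with mean and SD (black). Right, class medians by locus length in kb. Boundary genes stand at 6.56 to 6.78 FPKM on the left, and at 2.63 FPKM against 0.153 in interiors among loci up to 10 kb.

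Several families of clustered genes lay largely away from boundaries. Without the 643 protein-coding olfactory receptor, keratin, protocadherin and histone genes, a step chosen after the data were seen, the log2 difference between boundary and interior was 0.55 ± 0.01 (SD, n = 3) over all lengths and 1.47 ± 0.05 in loci up to 10 kb. Placing each gene by the end of its locus nearest to a boundary, in place of the midpoint, gave 1.14 ± 0.03 over all protein-coding genes.

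Boundary genes were higher than interior genes on 21 of 23 chromosomes. The gap was widest on chromosome 21, with medians of 10.8 against 2.40 FPKM (log2 difference 1.80 ± 0.14, SD, n = 3), and on chromosome 17, with 6.65 against 1.97 (1.37 ± 0.06). Chromosomes 15 and 22 went the other way, at 3.62 against 4.10 FPKM and 8.80 against 10.2. Chromosome 19, dense in genes, had 41.6% of its protein-coding genes at boundaries, and the X chromosome 25.2%.

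Boundary genes were not all alike. Those just outside their domain (2674 genes) had a median of 8.49 ± 0.223 FPKM (SD, n = 3) and those just inside (3954) one of 5.65 ± 0.106. An end that faced a second domain within 40 kb gave 6.41 ± 0.140 FPKM and an end that faced a gap 6.77 ± 0.120. Ends of domains with a low deposited score, up to 1.99, had a median of 7.32 ± 0.0491 FPKM, and ends with a score up to 2.37 (6.35 ± 0.198) or above it (6.39 ± 0.123) had lower ones. Genes whose midpoint was also within 40 kb of an end in both the H209 and MRC5 maps (3690, or 55.7%) stood at 7.32 ± 0.153 FPKM. Genes whose midpoint was within 40 kb of an end in neither of these maps (1103, or 16.6%) stood at 5.00 ± 0.0507. Ends were not matched between maps, so these are not ends found in DMS153 alone.

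Promoter sequences were compared between the classes. RefSeq promoters, 250 bases before to 50 after the start in build GRCh38.p14, were matched by symbol to 15006 of 18248 protein-coding genes (82.2%, and 81.2% to 83.7% in each class). Promoters of 1 chromosome were not analysed here. Motifs were searched as plain letters: the ETS factor site CCGGAAG, the GC box GGGCGG, the CCAAT box CCAAT, the cyclic AMP element TGACGTCA, the YY1 site AANATGGC and the core of the CTCF motif on both strands, and the TATA box TATAAA on the gene's strand, 20 to 40 bases before the start. A match is a run of letters and not a bound site.

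The ETS letters stood in 15.9% of boundary, 10.9% of interior and 16.3% of outside promoters, against 10.3% of all 35116 RefSeq promoters of this length. That set, given below as "of all", holds every RefSeq entry and is unlike the matched genes. Over all 15006 matched genes the shares were 14.5% for ETS, 59.5% for the GC box and 3.67% for the TATA box. They were 66.8% for at least 15 CpG pairs, 6.10% for the CTCF core and 36.6% for the CCAAT box. For YY1 and the cyclic AMP element they were 8.06% and 2.65%. Among genes at 1 FPKM or more the ETS shares were 20.4% of boundary, 15.2% of interior and 21.6% of outside promoters, lower in interiors among expressed genes too. The GC box was in 63.2%, 57.2% and 58.0% of promoters (44.95% of all), but in 71.7%, 69.7% and 69.9% among genes at 1 FPKM or more. At least 15 CpG pairs were found in 71.8%, 62.6% and 65.7% (48.9% of all), and in 85.1%, 79.4% and 83.5% of the expressed genes. The TATA box was in 2.91%, 4.28% and 3.89% (2.30% of all), and among expressed genes in 1.80%, 1.81% and 1.52%, so that the GC and TATA shares of the classes lay close together there. The CTCF core was in 6.71%, 5.71% and 5.83% (4.64% of all), and in 7.12%, 6.18% and 6.70% of the expressed genes. The CCAAT box differed little, at 36.8%, 35.2% and 37.7% (34.6% of all), and the YY1 letters were in 8.18%, 6.98% and 8.94% (6.58% of all). For the cyclic AMP element the shares were 2.91%, 2.53% and 2.50% (1.85% of all).

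To show what these letters look like, 80 bases of promoter are printed for 12 genes, 60 before the start and 20 from the start on, from RefSeq in build GRCh38.p14. Capitals mark the motif letters above on either strand. The first 5 are widely expressed boundary genes: the elongation factors EEF2 and EEF1B2, the splicing factor SRSF5, the cytochrome oxidase subunit COX6A1 and the mitochondrial ribosomal protein MRPL3.
EEF2, chr19:3985444-3985523, minus strand: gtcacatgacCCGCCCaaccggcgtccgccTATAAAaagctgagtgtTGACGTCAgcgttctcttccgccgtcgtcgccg
SRSF5, chr14:69767082-69767161, plus strand: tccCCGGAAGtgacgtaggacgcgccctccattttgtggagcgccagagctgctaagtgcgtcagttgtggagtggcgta
COX6A1, chr12:120438053-120438132, plus strand: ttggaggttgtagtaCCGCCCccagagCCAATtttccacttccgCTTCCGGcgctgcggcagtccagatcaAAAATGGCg
MRPL3, chr3:131502952-131503031, minus strand: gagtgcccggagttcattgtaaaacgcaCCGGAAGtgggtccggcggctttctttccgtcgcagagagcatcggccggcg
EEF1B2, chr2:206159549-206159628, plus strand: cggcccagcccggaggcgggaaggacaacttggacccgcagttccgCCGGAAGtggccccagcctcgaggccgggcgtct
In this stretch 4 of these 5 carry the ETS letters, and COX6A1 carries them on the opposite strand beside GC, CCAAT and YY1 letters. EEF2 instead has a TATA box, a cyclic AMP element and a GC box on the opposite strand. The 12 genes were chosen after their values and motifs were seen, so they illustrate and count for nothing.

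The next pair are boundary genes of the neuroendocrine state, GRP for gastrin-releasing peptide and CHGA for the granule protein chromogranin A.
GRP, chr18:59220098-59220177, plus strand: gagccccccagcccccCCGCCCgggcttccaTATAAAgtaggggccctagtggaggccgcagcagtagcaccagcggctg
CHGA, chr14:92923090-92923169, plus strand: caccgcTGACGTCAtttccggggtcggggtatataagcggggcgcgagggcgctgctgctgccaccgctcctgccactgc
GRP has a TATA box and a GC box, and CHGA a cyclic AMP element. The last 5 are interior genes: the protein folding enzyme PPIA, the cohesin subunit SMC1A, the calcitonin gene CALCA, the lung transcription factor NKX2-1 and the hair keratin KRT40.
PPIA, chr7:44796621-44796700, plus strand: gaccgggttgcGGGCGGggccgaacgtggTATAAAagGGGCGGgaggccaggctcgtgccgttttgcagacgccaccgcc
SMC1A, chrX:53422709-53422788, minus strand: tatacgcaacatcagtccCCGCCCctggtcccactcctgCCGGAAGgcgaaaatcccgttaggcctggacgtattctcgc
CALCA, chr11:14972332-14972411, minus strand: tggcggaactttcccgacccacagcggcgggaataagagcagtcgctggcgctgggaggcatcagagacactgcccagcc
NKX2-1, chr14:36520213-36520292, minus strand: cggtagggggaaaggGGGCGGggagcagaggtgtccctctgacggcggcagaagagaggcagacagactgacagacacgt
KRT40, chr17:40986982-40987061, minus strand: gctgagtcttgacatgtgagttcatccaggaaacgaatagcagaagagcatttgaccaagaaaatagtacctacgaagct
SMC1A shows that interior promoters can carry the ETS letters too, and PPIA that a strongly expressed interior gene can have a TATA box. In the printed stretches of CALCA and KRT40 none of the searched letters were found.

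Functions of the genes were compared next. Lists of genes with a shared role were counted by class, each beside the boundary share that all protein-coding genes of the same locus lengths had. Genes for the machinery of every cell had boundary shares above those. These shares have no test, since genes are not replicates. Of 89 ribosomal protein genes, 51 (57.3%, against 38.1%) were boundary and 5 (5.62%, against 23.9%) interior genes. Boundary members made up 35 of 63 spliceosome genes (55.6%, against 39.1%), 39 of 78 mitochondrial ribosomal genes (50%, against 37.8%) and 43 of 86 respiratory chain genes (50%, against 37.99%). Proteasome genes had 21 of 45 (46.7%, against 38.4%) and translation factors with tRNA synthetases 38 of 94 (40.4%, against 36.8%).

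Genes of cell division were common at boundaries too. The mitosis list had 26 of 42 members there (61.9%, against 38.5%) and 5 in interiors, and the DNA replication list 24 of 46 (52.2%, against 36.6%) and 9 in interiors. The neuroendocrine list was divided, with 18 of 38 boundary genes (47.4%, against 33.4%) and 16 interior genes (42.1%, against 32.1%), and only 4 outside. Fibroblast and matrix genes, with a median of 0.829 FPKM and 24 of 48 members at 1 FPKM or more, had 20 at boundaries (41.7%, against 35.2%). Architecture genes such as cohesin and condensin subunits had 13 of 34 (38.2%, against 34.6%), epithelial genes 10 of 30 (33.3%, against 36.4%) and chemokines and interleukins 27 of 83 (32.5%, against 37.2%). HOX genes, which pattern the body axis and sit in clusters, had 24 of 40 (60%, against 37.1%). Lists count gene identifiers, so a symbol with several identifiers counts more than once. HOXC4 is thus counted both as a boundary and as an interior gene, and SRSF8 of the spliceosome list repeatedly as an outside gene.

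Boundary shares well below those of their length were found for several clustered families and for zinc finger genes, while those of synapse and channel genes lay close to them. Synapse genes had 15 of 59 members at boundaries (25.4%, against 27.9%) and 24 in interiors (40.7%, against 40.7%), which are the shares of other genes of their great length. Voltage-gated and potassium channel genes had 37 of 133 at boundaries (27.8%, against 30.2%) and 65 in interiors (48.9%, against 37.4%). Olfactory receptor genes were at boundaries in 67 of 378 cases (17.7%, against 36.6%), keratin and keratin-associated genes in 21 of 149 (14.1%, against 37.3%) and ZNF-named zinc finger genes in 93 of 514 (18.1%, against 38.4%). More than any other list, the clustered protocadherins were interior, with 48 of 52. Of 64 replication-dependent histone genes, 49 (76.6%) lay outside domains and 0 in interiors. Long noncoding RNA genes with LINC names had 127 of 553 at boundaries (23.0%) and 239 in interiors (43.2%), near the 25.03% and 39.5% of all RefSeq long noncoding RNA genes. Members of the clustered families sit side by side in a few clusters, so that their positions are not independent of one another.

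**Figure D4:**
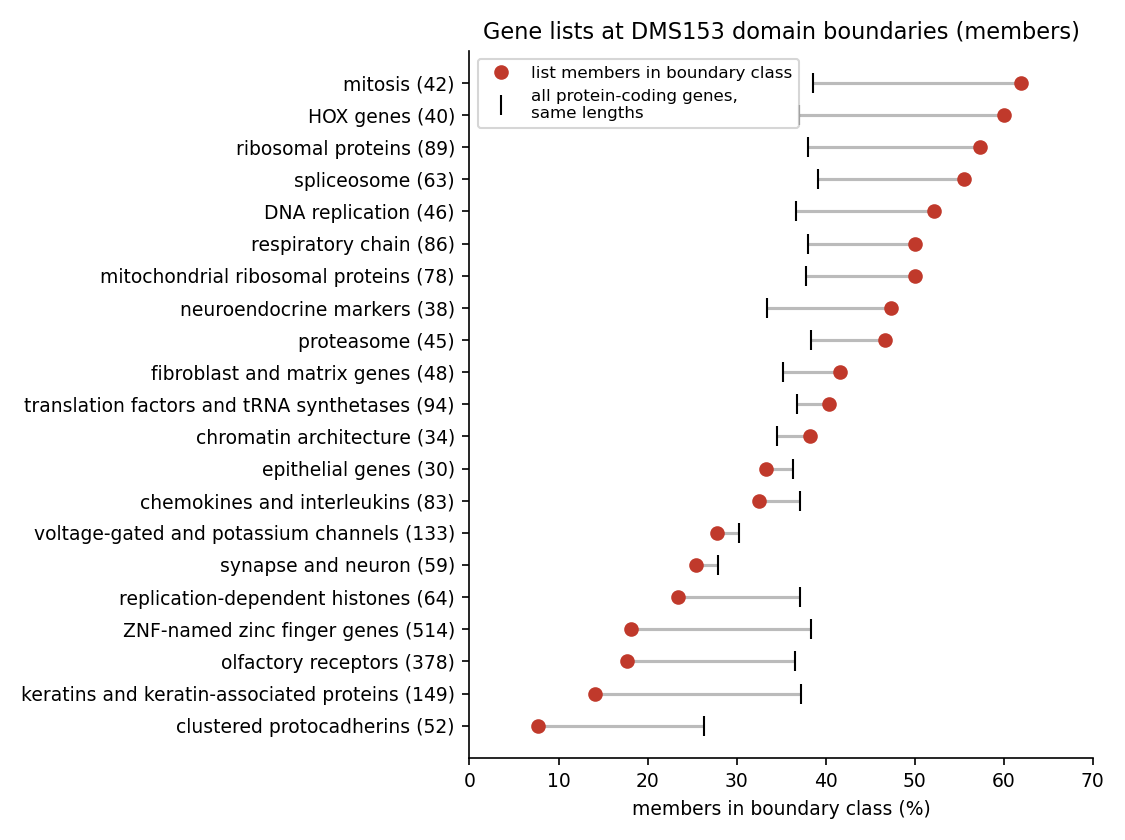
Percent of the members of each gene list (red points, number of members in brackets) that were DMS153 boundary genes, beside the percent among all protein-coding genes of the same locus lengths (black ticks). Mitosis (61.9%), HOX (60%) and ribosomal protein genes (57.3%) lie furthest right and clustered protocadherins (7.69%) furthest left.

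Within a list, expression did not always follow the class. Boundary and outside ribosomal genes had nearly the same median (450 and 445 FPKM), and so did boundary and interior genes of DNA replication (34.5 and 36.5), of mitosis (42.1 and 49.4) and of the neuroendocrine list (78.1 and 83.3). Spliceosome genes were at 84.3 FPKM at boundaries, 53.5 in interiors and 33.3 outside. Proteasome genes were lowest at boundaries, with 34.5 FPKM there, 69.0 in the 5 interior members and 53.0 outside. Fibroblast and matrix genes were low in each class and highest at boundaries, with 2.14, 0.546 and 0.315 FPKM. The neuroendocrine list holds genes known for their expression in such tumours, and all 38 of its members reached 1 FPKM.

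The 10 boundary genes of highest level were ranked without pseudogenes, clone names and duplicated symbols. Ribosomal protein, elongation factor, chaperone and actin genes were among them, and so were SEC11C, GRP and TPT1. RPS27, a ribosomal protein gene on chromosome 1 (ENSG00000177954.7, 153963235 to 153964626 in hg19), stood at 2126, 2636 and 2061 FPKM with its midpoint 3.93 kb inside a domain end. RPS24 was at 2075, 2177 and 1887 FPKM and EEF2, which moves the ribosome along the messenger, at 1143, 1207 and 1116, its midpoint 0.761 kb from an end. Ribosomal genes have many near-identical pseudogene copies, so reads may be shared between them. The chaperone gene HSPA8 was at 807, 876 and 775 FPKM, and the actin genes ACTG1 and ACTB had means of 1045 ± 56.9 and 1005 ± 45.8 (SD, n = 3).

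Strong expression was found in the other classes as well. PTMA, an acidic nuclear protein of growing cells, reached 2656, 3163 and 2337 FPKM at 85.1 kb from the nearest end. STMN1, which binds tubulin, was at 1707, 1923 and 1604 FPKM at 82.1 kb, and PPIA at 1584, 1690 and 1575 at 230 kb. Among outside genes EEF1A1, which brings transfer RNA to the ribosome, had the highest level of all named genes with 3647, 3783 and 3421 FPKM at 130.5 kb from an end.

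A pair of the strongest boundary genes flank 1 small domain of chromosome 18, from 56820000 to 56899998 in hg19. SEC11C (ENSG00000166562.4, 56806709 to 56826068), a subunit of the signal peptidase that trims secreted proteins, lies across its start and was at 2304, 2133 and 2355 FPKM. GRP (ENSG00000134443.5, 56887400 to 56898006) lies just within its end and was at 763, 767 and 798 FPKM. RAX, the next gene, was at only 2.12, 2.46 and 1.75 FPKM with its midpoint 37.8 kb from an end. H209 had an end within 40 kb of the midpoint of GRP and none near SEC11C, and MRC5 had none near either. GRP was at 166 ± 2.00 FPKM in H209 and listed at 0 in MRC5, and SEC11C at 760 ± 2.42 (SD, n = 2) and 19.8 ± 1.80 (SD, n = 3).

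The regulators of the neuroendocrine state were found in both positions. INSM1, a zinc finger factor of neuroendocrine cells, was a boundary gene at 183, 237 and 168 FPKM, ST18 one at 212, 221 and 192, and SOX2, a factor of progenitor cells, one at 20.0, 18.9 and 18.0. MYCL, a member of the MYC family often amplified in this tumour type, was a boundary gene at 55.9, 63.9 and 48.3 FPKM. NKX2-1 (ENSG00000136352.13, chromosome 14, 36985602 to 36990354) lay deep in a domain, 92.0 kb from its end, at 67.6, 70.02 and 69.4 FPKM. NKX2-8 in the same domain was a boundary gene at 0.213, 0.215 and 0.108 FPKM, so here the interior gene was the expressed one.

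Hormones and granule proteins were divided as well. CHGA was a boundary gene at 257, 219 and 348 FPKM, and PCSK1, which cuts prohormones, one at 131, 112 and 187. TPH1, the first enzyme of serotonin synthesis, lay 31.5 kb inside a domain end at 330, 239 and 436 FPKM. CALCA, which encodes calcitonin and a related peptide, was interior at 376, 279 and 519 FPKM, PCSK2 interior at 208.8, 226 and 261 and CHGB interior at 147, 118 and 203. In CHGA, PCSK1, TPH1, CALCA, PCSK2 and CHGB alike, replicate 3 was the highest library. Of the surface proteins, EPCAM was a boundary gene at 323, 253 and 294 FPKM, while NCAM1, a neural adhesion protein (187, 177 and 190), CDH1, the epithelial cadherin (186, 213 and 206), and DLL3, an inhibitory Notch ligand (94.5, 105 and 98.0), were interior.

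The HOXD cluster lies across a domain boundary of chromosome 2. Of its members, 8 were boundary genes and HOXD1 an interior one. HOXD10 (ENSG00000128710.5, 176973518 to 176984670 in hg19), with its midpoint 0.906 kb outside the start of a domain at 176980000, was the highest at 77.8, 85.4 and 87.2 FPKM. HOXD8 followed on the inside with 51.0, 58.2 and 58.8, and HOXD11 and HOXD9 to either side of HOXD10 with 30.7 and 28.1 on average. The level was lower at HOXD4 (18.4, 20.9 and 21.4) and HOXD1 (5.38, 5.51 and 5.47), which is 74.5 kb inside. HOXD12 was at only 2.22, 2.49 and 2.69 FPKM, 5.44 kb from an end. In the HOXA cluster the boundary genes HOXA10 (10.4, 12.3 and 12.0) and HOXA9 (9.45, 8.99 and 9.04) were expressed, and in the HOXC cluster HOXC8 (0.0249, 0.0342 and 0.0501) was not, though all lie within 40 kb of an end. HOX genes overlap each other and their antisense RNAs, so reads may be shared.

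Genes that build chromatin architecture were well expressed in each class. The cohesin subunit STAG2 was a boundary gene at 151, 157 and 139 FPKM, SMC3 one at 86.5, 80.03 and 70.5, and the condensin subunit SMC4 one at 219, 180 and 181, which overlaps expressed neighbours. CTCF itself was interior at 27.6, 30.7 and 25.8 FPKM, 65.3 kb from an end, and SMC1A interior at 104, 128 and 109.

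The classes were then compared between lines, with limma on log2(FPKM + 1) over all 8 RNA libraries. Calls needed an adjusted p (Benjamini-Hochberg) under 0.05 together with a log2 change of 1 or more either way. Of 6690 tested boundary genes, DMS153 had 2103 (31.4%) above and 1174 (17.5%) below their MRC5 level, where 33.1% and 16.6% of all 18727 tested genes were called. Among protein-coding genes the boundary class had 30.2% higher and 19.5% lower calls, the interior class 35.9% and 20.0%, and the outside class 30.7% and 16.6%. The boundary shares were thus close to the background, and the interior share of higher calls was above it. Scaling the libraries by median ratios moved the median change of tested protein-coding genes from 0.33 to -0.20 and turned the split, to 20.7% higher and 31.3% lower at boundaries and 26.7% and 28.9% in interiors. The excess of higher calls in interiors over boundaries was present under both.

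Against H209, 734 boundary genes (10.97%) were higher and 877 (13.1%) lower in DMS153, with 12.5% and 13.6% called over all tested genes. For protein-coding genes the shares were 10.2% and 13.4% at boundaries, 14.8% and 12.3% in interiors and 11.1% and 15.7% outside. With median ratios they were 11% and 10.4%, 15.98% and 9.68%, and 12.3% and 12.6%. These comparisons share the DMS153 libraries.

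**Figure D5:**
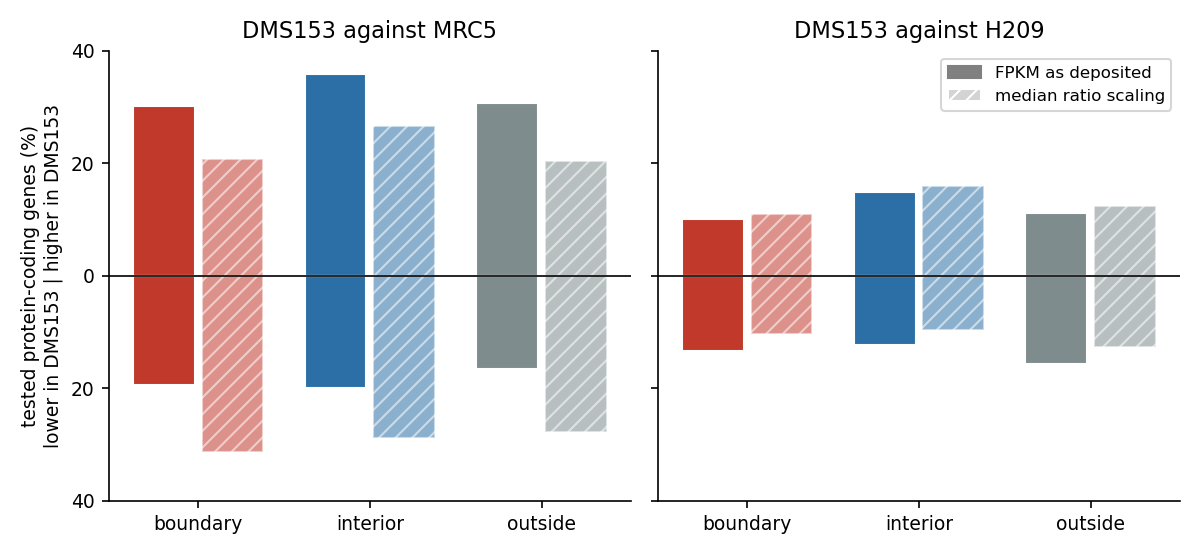
Percent of tested protein-coding genes of each DMS153 class called higher (upward) or lower (downward) in DMS153 than in MRC5 (left) or H209 (right), with FPKM as deposited (solid) and after median ratio scaling (hatched). Against MRC5 the boundary bars are 30.2% higher and 19.5% lower, and turn to 20.7% and 31.3% with median ratios.

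Whether MRC5 also had a domain end near the gene went along with the calls. Of 3471 tested protein-coding boundary genes with an MRC5 end within 40 kb, 28.0% were higher and 20.5% lower in DMS153. Of 1683 without one, 34.8% were higher and 17.4% lower. Their share of higher calls was nearer to the 35.9% of the interior class. Their share of lower calls was further from its 20.0%. Against H209 the genes with an end there had 9.60% higher and 13.7% lower calls and those without 11.7% and 12.6%.

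The DMS153 classes could also be read in the other lines. The log2 difference between boundary and interior medians of protein-coding genes was 0.82 ± 0.02 (SD, n = 2) in H209 and 0.96 ± 0.01 (SD, n = 3) in MRC5, both above the 0.64 of DMS153 itself, with no overlap between libraries (exact 2-sided permutation p = 0.1 for each, the smallest possible). On mean log2 values the 3 lines stood at 0.43 in DMS153, 0.55 in H209 and 0.51 in MRC5. Over all genes the median difference was smaller in MRC5, at 0.07 against 0.26 in DMS153, where medians lie close to 0 FPKM. On their own maps H209 and MRC5 gave 0.75 ± 0.02 and 0.77 ± 0.04 for protein-coding genes.

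The lists differed in how their boundary genes stood against MRC5. All 26 boundary genes of mitosis rose, as did 5 of 5 interior and 11 of 11 outside members, with a median log2 change of 3.83 at boundaries, where the median of all tested genes was 0.41. Of all tested protein-coding genes, 30.2% were higher at boundaries, 35.9% in interiors and 30.7% outside. MKI67, a marker of dividing cells, stood at 96.6, 114 and 92.8 FPKM in DMS153 and at 0.962 on average in MRC5 (log2 change 5.70 ± 0.09, SE; limma adjusted p = 4.06e-11). Of the replication genes, 21 of 24 boundary and 7 of 9 interior members rose and none fell. MCM2, a helicase subunit, was at 74.7, 83.8 and 69.5 FPKM against 3.51 (4.09 ± 0.09, SE; limma adjusted p = 1.89e-10).

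Ribosomal protein genes did the reverse at boundaries, with 23 of 51 lower in DMS153, 0 higher and a median of -0.85, where 19.5% of all tested protein-coding boundary genes were lower and their median was 0.23. Other classes did likewise. Outside members had 14 of 31 lower, 1 higher and a median of -0.95, and interior members 1 of 4 lower and a median of -0.73. With median ratios 44 of 51 boundary members were lower, where 31.3% of all tested protein-coding boundary genes were. So were 26 of 31 outside and 4 of 4 interior members. Proteasome genes at boundaries had 6 of 20 lower and 0 higher, and with median ratios 11 of 20 lower. Outside members had 0 of 18 lower and 12 of 18 with median ratios. As deposited, the medians were -0.54 at boundaries and -0.51 outside. Spliceosome genes had 9 of 35 higher at boundaries, a share below the 30.2% of all tested protein-coding boundary genes, and a median of 0.60. Median ratio scaling brought that median to -0.01, with 2 higher and 2 lower.

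For the lists that follow, the shares of all tested protein-coding genes that rose were 30.2% at boundaries and 35.9% in interiors. Of the 18 boundary genes of the neuroendocrine list, 17 rose and 1 fell, and 16 of 16 interior members rose, with medians of 5.995 and 5.87. The one that fell is UCHL1, a deubiquitinating enzyme named after its values were seen, at 261, 263 and 284 FPKM against 734 in MRC5 (log2 change -1.44 ± 0.07, SE; limma adjusted p = 6.22e-08). GRP, INSM1 and CEACAM5, a surface glycoprotein, were listed at 0 in all MRC5 libraries. CHGA was at 0.00284 FPKM in MRC5 (8.07 ± 0.14, SE; limma adjusted p = 6.86e-11) and EPCAM at 0.110 (8.03 ± 0.09, SE; limma adjusted p = 5.55e-12). All 10 boundary and 9 tested interior genes of the epithelial list rose. Of the HOX genes tested at boundaries, 12 of 19 rose, and 8 of these 12 are the HOXD genes. In the other classes 2 of 5 interior and 0 of 7 outside HOX genes rose.

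Fibroblast genes at DMS153 boundaries fell in 19 of 20 cases and interior ones in 16 of 16, with medians of -7.44 and -6.51. Outside members fell in 12 of 12 cases. Of all tested protein-coding genes, 19.5% were lower at boundaries, 20.0% in interiors and 16.6% outside. VIM, an intermediate filament of mesenchymal cells, was at 0.124, 0.0987 and 0.0802 FPKM against 1764 in MRC5 (log2 change -10.64 ± 0.08, SE; limma adjusted p = 5.85e-13). FN1, a matrix glycoprotein, was at 2.56, 3.40 and 2.44 FPKM against 2145 (-9.15 ± 0.10, SE; limma adjusted p = 5.46e-12). The exception S100A4, named after its values were seen, was at 2.22, 2.13 and 2.68 FPKM against 2.53 in MRC5 (-0.08 ± 0.11, SE; limma adjusted p = 0.503). Among the architecture genes 8 of 12 rose at boundaries, 4 of 7 in interiors and 10 of 14 outside. Of all tested protein-coding boundary genes, 30.2% rose. The boundary gene LMNA, which encodes lamins of the nuclear envelope, fell from 376 FPKM in MRC5 to 84.6, 89.0 and 94.2.

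Several of the named boundary genes were also called between the carcinoma lines. TPH1 was at 1.86 FPKM in H209 (log2 change 6.84, limma adjusted p = 1.17e-08). GRP was higher in DMS153 by 2.22 (limma adjusted p = 5.28e-09) and STAG2, at 41.2 FPKM in H209, by 1.84 (limma adjusted p = 6.88e-07). MYCL was lower in DMS153, with 153 FPKM in H209 (-1.44, limma adjusted p = 2.81e-06), and SPARC, a matrix protein gene at 2.64, 2.95 and 3.51 FPKM in DMS153, was lower by more, with 103 FPKM in H209 (-4.69, limma adjusted p = 1.84e-09). CHGA, at 356 FPKM in H209, and EPCAM, at 280, were not called.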

How the data were processed

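RNA-seq was read in 3 DMS153, 2 H209 and 3 MRC5 libraries and chromatin domains in 1 Hi-C library per line. The authors deposited FPKM values per gene, with a locus and a status, per the file headers. Tools listed in the submitters' processing notes are TopHat2 2.1.0 and Cufflinks 2.2.0, Bowtie2, and HOMER 4.8, with the assembly hg19. The domain lists have no header, and the deposited score of a domain, whose meaning is not given in the sources used here, only ranked domains. Selection and strand of the RNA libraries are not given either, so overlapping genes can share reads.

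Classes used the locus midpoint and domain ends on a 20 kb grid. Levels were compared as class medians of log2(FPKM + 1) in each library, because genes are not replicates. RefSeq names (GRCh38.p14) matched 29400 genes (55.6%) and were used for biotype only. Lines were compared with limma 3.58.1 in R 4.3.3, with a trend, on the 19066 genes with at least 1 FPKM in 2 or more libraries. The fit was tested on simulated data. Values with a failed status (33 to 60 classed genes per DMS153 library) were kept. Some items are not reported here.

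Named are the 10 boundary, 6 interior and 6 outside genes of highest level, up to 2 boundary and 2 interior genes of each list from 5 FPKM on, a core of lineage and architecture genes, the 6 boundary genes with the largest rise and the 6 with the largest fall against MRC5, and genes said to be named after their values were seen. Neighbours of GRP, HOXD10, CALCA and NKX2-1 and other members of the printed lists were also chosen after their values were seen. The rankings by level, rise and fall left out mitochondrial genes, genes with clone names, RefSeq pseudogenes and duplicated symbols. Lists defined by a symbol pattern were restricted to protein-coding genes, except LINC names. Members, lists and tests were chosen with earlier results of these data known.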

Additional observations from a re-analysis of the deposited data

How the results depend on the processing

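Over all genes the boundary excess over interior and outside genes, and for protein-coding genes that over interior genes, kept its direction under every alternative run. The excess over outside genes did not hold at the median for protein-coding genes with loci above 100 kb (-0.26). Nor did it for those with a mean of at least 1 FPKM (-0.025), where mean log2 values gave 0.05. Over all genes the excess ran from 0.20 (80 kb) to 1.43 (pseudocount of 0.1) on the log2 scale against interior genes and from 0.15 (genes with at least 1 FPKM in a DMS153 library) to 1.35 (pseudocount of 0.1) against outside genes, and for protein-coding genes against interior genes from 0.29 (the same minimum) to 1.14 (nearest end of the locus). The last set was added after seeing the data. Without 1 DMS153 library each, these differences were 0.26 to 0.26, 0.25 to 0.26 and 0.64 to 0.64. The boundary minus interior difference in the share of genes at 1 FPKM or more was 13.3 percentage points. It was 13.1 at 20 kb, 14.6 at 80 kb, 24.2 by the nearest end of the locus, 6.74 for protein-coding genes, 17.6 for loci of 100 kb or less, 12.6 for domains with a score at or above the median and 13.5 on autosomes, and 13.3 to 13.4 without 1 library.

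Calls at boundaries scaled with the width of the zone. At 20 kb and 80 kb, 1178 and 3437 genes were higher than in MRC5, 607 and 1825 lower, 406 and 1238 higher than in H209 and 459 and 1319 lower. Median ratio scaling gave 1464 higher and 1877 lower than in MRC5, against 2103 and 1174 with FPKM as deposited. Without 1 library each, the counts were 2069 to 2107 higher and 1146 to 1195 lower than in MRC5, and 717 to 751 higher and 717 to 903 lower than in H209.

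Replicate numbers share no stated origin, and deviations of same-numbered libraries correlated at -0.0118 to 0.123. Replicates 1 and 2 of DMS153 and of H209 each correlated best with the MRC5 library of their own number, at 0.0717 to 0.123. DMS153 replicate 3 correlated best with H209 replicate 1 (0.032), and with MRC5 replicate 3 at -0.0118. With the replicate block, boundary calls were 2103 higher and 1175 lower than in MRC5 and 721 higher and 871 lower than in H209.

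Of 727 values of 56 named boundary genes against MRC5 under 13 alternatives, 708 kept direction and call. A call was lost in 6 values and gained in 6, and direction reversed in 7. In all, 14 genes had any such change. Direction reversed with median ratio scaling in SRSF5 (-0.17), COX6A1 (-0.042), PSMC3 (-0.45), MRPL3 (-0.11), LINC00998 (-0.57) and CACNB3 (-0.45), none of them called as deposited, and in LINC00998 without DMS153 replicate 1, where leaving out 1 library each gave -0.018 to 0.11. FPKM without counts leave the precision of low values unknown, and with 1 Hi-C library the position of a boundary has no replicate.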
